A study of Mus musculus with 9 samples.

Results

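The genes described here are 10 genes of mouse chromosome 14, at about 45 to 55 Mb of the GRCm38 build, around the Tcra locus that encodes the T-cell receptor (TCR) α chain. They are 4930431P03Rik, Ptger2, Samd4, Gch1, Atg14, Ccnb1ip1, Rnase4, Rpgrip1, Sall2 and Ppp1r3e, in order along the chromosome, out of 24060 genes in the expression table. They were chosen by their difference between Rop7-III and Rop7-II CD8 T cells, which for all 10 was at least 2-fold on the log2(TPM + 1) scale with an adjusted p under 0.01, so that their values in that pair of clones are given as a description and without a test. All 10 passed the filter on low values, a maximum over 1 TPM (transcripts scaled to a fixed total per sample), as did 12115 genes in all. The filter keeps a gene that is high in any clone.

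RNA was sequenced from CD8 T cells of 3 lines of transnuclear mice, Rop7-I, Rop7-II and Rop7-III, with 3 biological replicates per line and 9 samples in all. Each line was made by transferring the nucleus of a CD8 T cell into an oocyte, so that its T cells carry the rearranged TCR genes of that donor cell. All 3 receptors bind the same peptide of the Toxoplasma protein Rop7 on H-2Ld. The mice were homozygous for the rearranged TCR genes and were on a BALB/c background by repeated backcrossing, and the labels name no further allele or agent apart from the culture described next. Splenocytes that had received no antigen were held overnight with IL-2, and the CD8 T cells that bound the Rop7 tetramer (CD3+, CD8+ and H-2Ld-Rop7+) were then sorted. Ages were not given in the sources used here. Each clone is a single mouse line, and whether the 3 samples of a line came from separate mice was not stated, so the spread between them may be partly technical. The TCR, the chromosome segment around the rearranged Tcra locus and any other difference between the lines cannot be told apart in this design.

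As background, the TCR α chain is assembled by joining gene segments spread along the Tcra locus, which deletes the DNA between them. Genes that lie near a locus on the same chromosome are inherited together with it, and the more so the closer they lie, so a backcross that selects for a rearranged Tcra allele also keeps flanking DNA of the donor. Apart from the long noncoding RNA 4930431P03Rik, the genes here have separate known roles, in signalling, metabolism, autophagy and transcription among others. None of the genes is a TCR component. The expression table held 0 rows for single TCR gene segments.

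The samples were alike as wholes. Between 11056 and 11494 genes exceeded 1 TPM, and the 10 most abundant genes took 6.15% to 6.56% of all TPM. The summed TPM of 5 CD8 T-cell genes (Cd3e, Cd3d, Cd3g, Cd8a and Cd8b1) lay between 4974 and 5603 in every sample. Rop7-II replicate 1 stood apart, with 2458 summed TPM of 14 B-cell genes, all of them highest in that sample, where the other samples held 151 to 1051. It was also highest for 12 of 13 myeloid genes, with a sum of 817 TPM, and for 3 of 4 CD4 T-cell genes, with a sum of 19.1 TPM. The remaining CD4 T-cell gene, Cd40lg, was highest in Rop7-III, at 2.90 to 3.70 TPM, and reached at most 0.70 TPM in the other clones. The sum of 5 NK-cell genes was 12.8 to 18.3 TPM in Rop7-I, 2.5 to 3.35 in Rop7-II and 5.82 to 7.91 in Rop7-III. It was mostly Eomes, which CD8 T cells also express, at 12.35 to 17.46, 1.49 to 3.07 and 5.30 to 7.62 TPM in the same order, while the other 4 (Ncr1, Klrb1c, Klra4 and Klra8) reached at most 1.19 TPM. The sum of 5 erythroid genes was 131 to 565 TPM in Rop7-I, highest in replicate 2, 2.87 to 117 in Rop7-II and 6.19 to 206 in Rop7-III. Hbb-bs was at 0 in all samples. By clone, the sum of the 14 B-cell genes was 402 to 1051 TPM in Rop7-I, 192 to 2458 in Rop7-II and 151 to 319 in Rop7-III. Rop7-I and Rop7-III thus did not overlap in it. Whether cells of these kinds add to the differences between the clones was not tested. In bulk RNA, fewer cells that express a gene and less RNA per cell cannot be told apart.

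Of the 10 genes, 9 lie on the lower-coordinate side of Tcra, which spans chr14:52427967-54224198. The distances run from 7.47 Mb for 4930431P03Rik to 0.10 Mb for Sall2, and Ppp1r3e lies 0.65 Mb beyond the other end. 2 of the genes, 4930431P03Rik and Ptger2, start just under 45 Mb. RefSeq promoter windows (GRCm38.p6, 250 bases before to 50 after each start) were at hand for 9 of the 10 genes, with 12 windows in all, and Ppp1r3e had none. 4 of them are printed, to show the starts of the closest pair of neighbours (4930431P03Rik and Ptger2, 26.8 kb apart) and of a pair of set-apart genes that moved in opposite directions (Gch1 and Atg14). Capitals mark matches, on either strand, to 6 motifs. These are GGGCGG, the core of the GC box, TGTGGT, the core of the motif that Runx factors bind, TATAAA, the TATA box, TGACGTCA, the cyclic AMP response element, CACGTG, the E-box, and CCGGAAGT, a motif that Ets factors bind. No motif contains another.
4930431P03Rik promoter, chr14:44961258-44961557, minus strand: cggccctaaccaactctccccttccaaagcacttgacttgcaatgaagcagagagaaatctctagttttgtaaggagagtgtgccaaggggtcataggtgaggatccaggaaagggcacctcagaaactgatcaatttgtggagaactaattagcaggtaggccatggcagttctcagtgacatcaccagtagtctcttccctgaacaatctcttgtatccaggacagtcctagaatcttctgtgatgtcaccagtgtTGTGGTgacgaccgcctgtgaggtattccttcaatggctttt
Ptger2 promoter, chr14:44987861-44988160, plus strand: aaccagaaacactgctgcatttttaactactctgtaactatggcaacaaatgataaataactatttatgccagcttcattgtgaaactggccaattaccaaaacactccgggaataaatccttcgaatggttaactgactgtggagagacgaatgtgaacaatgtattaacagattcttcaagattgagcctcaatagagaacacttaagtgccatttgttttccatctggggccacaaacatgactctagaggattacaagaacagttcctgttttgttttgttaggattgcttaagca
Gch1 promoter, chr14:47189364-47189663, minus strand: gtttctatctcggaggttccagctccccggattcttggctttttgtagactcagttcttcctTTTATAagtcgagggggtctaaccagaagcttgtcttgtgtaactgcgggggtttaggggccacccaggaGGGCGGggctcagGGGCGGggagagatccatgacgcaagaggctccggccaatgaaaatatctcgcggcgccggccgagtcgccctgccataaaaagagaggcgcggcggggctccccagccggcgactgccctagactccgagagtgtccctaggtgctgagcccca
Atg14 promoter, chr14:47568385-47568684, minus strand: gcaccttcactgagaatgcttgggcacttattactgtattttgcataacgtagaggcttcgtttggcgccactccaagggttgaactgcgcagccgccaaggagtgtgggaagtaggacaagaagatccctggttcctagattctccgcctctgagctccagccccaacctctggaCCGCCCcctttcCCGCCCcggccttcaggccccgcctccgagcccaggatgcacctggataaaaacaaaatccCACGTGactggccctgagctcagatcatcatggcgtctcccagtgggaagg
The windows had little in common. Both windows of the closest neighbours held 3 CpG dinucleotides, against 20 for Gch1, 13 for Atg14 and a median of 7 over all 32851 promoter windows of the table. GGGCGG was found in 5 of the 12 windows (Samd4, where both windows held it, Gch1, Atg14 and Rnase4), against 35.7% of all windows. TATAAA was found in 3 (Gch1, Rpgrip1 and Sall2), against 13.6%, TGTGGT in 4930431P03Rik alone, against 16.8%, and CACGTG in Atg14 alone, against 7.15%. TGACGTCA, held by 1.79% of all windows, and CCGGAAGT, held by 3.89%, were in none of the 12. These are matches of letters only.

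In all 10 genes the 3 Rop7-III samples lay outside the range of the 6 other samples, above it in 6 genes and below it in 4, where 18.6% of all tested genes had Rop7-III outside the other samples. The odd clone of a gene was defined as the clone outside the closest pair of clone means on the log2(TPM + 1) scale. It was Rop7-III for 9 of the 10 genes, high in 5 and low in 4, and Rop7-II, low, for 4930431P03Rik. Over all tested genes the odd clone was Rop7-III in 35%, Rop7-II in 39.1% and Rop7-I in 26.0%. The shares over all tested genes involve no choice of genes and are no like background. In genes chosen for a wide gap between Rop7-III and Rop7-II, these clones can hardly be the closest pair, so Rop7-I can hardly be odd. That the Rop7-III samples lay outside those of Rop7-II also follows in large part from the choice. Rop7-I, which the choice of the genes did not use, is the clone that places each gene.

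**Figure D1:**
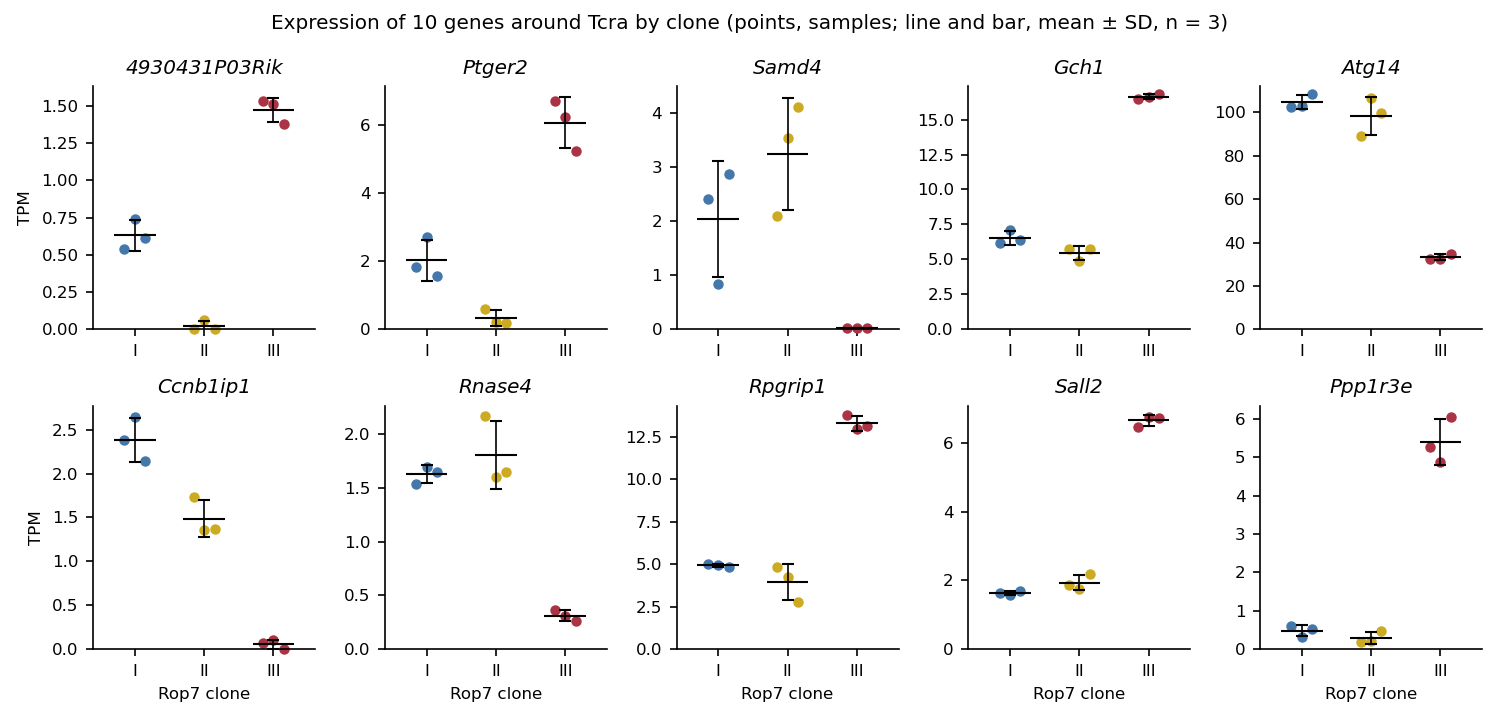
TPM (y axis, from 0, a scale per gene) of the 10 genes in the 3 Rop7 clones (x axis), with a point per sample and the mean with SD of 3 samples in black. Rop7-III lies above the other clones in 6 panels and below them in 4.

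Among the genes that were high in Rop7-III, Gch1 (chr14:47153895-47189413, minus strand) encodes GTP cyclohydrolase 1, the rate-limiting enzyme of tetrahydrobiopterin synthesis. It was at 6.15, 7.11 and 6.41 TPM in the 3 Rop7-I samples, at 5.75, 4.91 and 5.77 in Rop7-II and at 16.5, 16.6 and 16.8 in Rop7-III. Mean TPM in Rop7-III was 3.04-fold that in Rop7-II and 2.54-fold that in Rop7-I, and no Rop7-III value came near the others. Every Rop7-I value was above every Rop7-II value.

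Rpgrip1 (chr14:52104241-52161339, plus strand) encodes a protein of the ciliary transition zone known from photoreceptors. It was at 5.01, 4.95 and 4.83 TPM in Rop7-I, at 4.84, 4.24 and 2.80 in Rop7-II and at 13.8, 12.9 and 13.2 in Rop7-III. Rop7-I and Rop7-II overlapped, and Rop7-III was 3.36-fold above Rop7-II and 2.70-fold above Rop7-I. Rpgrip1 overlaps Supt16, on the opposite strand, and the reads were not strand-specific, so reads from the shared stretch cannot be told apart. Supt16, a subunit of the FACT histone chaperone, moved the other way, with means of 87.4 TPM in Rop7-I, 81.5 in Rop7-II and 73.2 in Rop7-III.

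Sall2 (chr14:52311177-52328670, minus strand), a zinc-finger transcription factor of the spalt family, is the nearest of the 10 genes to Tcra. It was at 1.63, 1.57 and 1.70 TPM in Rop7-I, at 1.85, 1.76 and 2.18 in Rop7-II and at 6.47, 6.76 and 6.73 in Rop7-III. Rop7-II was slightly above Rop7-I with no overlap, and Rop7-III was 3.45-fold above Rop7-II and 4.07-fold above Rop7-I.

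Ppp1r3e (chr14:54875597-54877538, minus strand), on the far side of Tcra, encodes a glycogen-targeting subunit of protein phosphatase 1. It was at 0.60, 0.31 and 0.53 TPM in Rop7-I, at 0.19, 0.22 and 0.47 in Rop7-II and at 5.26, 4.89 and 6.05 in Rop7-III. This was the widest ratio to Rop7-I among the 6 genes high in Rop7-III, 11.3-fold, although the low values of the other clones make it imprecise.

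Of the genes that were low in Rop7-III, Atg14 (chr14:47540893-47568434, minus strand) was by far the most abundant. It encodes the subunit that directs the class III phosphatidylinositol 3-kinase complex to the formation of autophagosomes. It was at 103, 103 and 108 TPM in Rop7-I, at 89.3, 107 and 99.6 in Rop7-II and at 32.5, 32.4 and 34.9 in Rop7-III. Rop7-I and Rop7-II overlapped, and Rop7-III held 0.318 of the mean TPM of Rop7-I and 0.337 of that of Rop7-II.

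Ccnb1ip1 (chr14:50789249-50795728, minus strand) encodes an E3 ubiquitin ligase that is known for its role in meiotic crossing over. It was at 2.38, 2.64 and 2.14 TPM in Rop7-I and at 1.73, 1.36 and 1.37 in Rop7-II, and in Rop7-III it was at 0.07, 0.10 and 0 TPM. The transcript was thus close to the lower end of the table in all 3 Rop7-III samples, and Rop7-I was the highest clone.

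Samd4 (chr14:46882965-47105817, plus strand), an RNA-binding repressor of translation that recruits the deadenylation machinery, was at 0.02, 0.02 and 0.03 TPM in Rop7-III. It was at 2.40, 0.83 and 2.87 TPM in Rop7-I and at 2.09, 3.53 and 4.11 in Rop7-II, which overlapped each other and varied most among the 10 genes on the log2 scale, with a standard error of 0.29 for a difference between clones. With so wide a spread Samd4 was not called between Rop7-III and Rop7-I, although every Rop7-III value was below every Rop7-I value.

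Rnase4 (chr14:51091077-51106151, plus strand) encodes a secreted ribonuclease of the RNase A family and overlaps Ang on the same strand, so that reads of one can be given to the other. It was at 1.54, 1.70 and 1.65 TPM in Rop7-I, at 2.17, 1.60 and 1.65 in Rop7-II and at 0.36, 0.31 and 0.26 in Rop7-III. Its highest value came from Rop7-II replicate 1, the sample with the B-cell and myeloid transcripts, and the part of those cells in it was not tested.

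The 2 remaining genes, which are next to each other, were graded over the clones, with Rop7-I about midway between the others. Ptger2 (chr14:44988111-45003820, plus strand) encodes EP2, a receptor of prostaglandin E2 that raises cyclic AMP. It was at 1.83, 2.70 and 1.55 TPM in Rop7-I, at 0.60, 0.22 and 0.19 in Rop7-II and at 6.71, 6.24 and 5.25 in Rop7-III, so that the clones did not overlap in the order Rop7-III, Rop7-I, Rop7-II. The long noncoding RNA 4930431P03Rik (chr14:44954900-44961307, minus strand) had the same order, at 0.54, 0.74 and 0.61 TPM in Rop7-I, at 0, 0.06 and 0 in Rop7-II and at 1.53, 1.51 and 1.38 in Rop7-III. Gch1 also had this order without overlap, but its Rop7-I mean lay only 15.4% of the way from Rop7-II to Rop7-III on the log2(TPM + 1) scale. Rop7-I lay 52.8% of the way for 4930431P03Rik and 48.7% for Ptger2. The odd clone of this pair is therefore not settled. Over 13 settings of the processing it was Rop7-III in 7 and Rop7-II in 6 for Ptger2, and Rop7-II in 11 and Rop7-III in 2 for 4930431P03Rik, while for each of the other 8 genes it was Rop7-III in all 13. Each graded gene also overlaps annotated genes on the opposite or the same strand, Gm49364 among them, and Samd4, Gch1 and Atg14 overlap further genes of the GENCODE M21 annotation.

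To place Rop7-I without using the difference that chose the genes, Rop7-I was compared with the midpoint of Rop7-II and Rop7-III, a contrast that is orthogonal to Rop7-III minus Rop7-II when the clones have equal numbers of samples. The fit was limma on log2(TPM + 1) over all tested genes, with Benjamini-Hochberg adjustment. In it 5 of the 10 genes were past an adjusted p of 0.01, where 4.13% of all tested genes (500) were. That share is no like background for the 10 genes. A gene chosen for a wide gap between Rop7-III and Rop7-II lies off the midpoint unless Rop7-I is about halfway. The contrasts also share the estimate of each gene's spread, so a choice by adjusted p favours genes of small spread here too. In each of the 5, Rop7-I lay on the Rop7-II side of the midpoint. Rop7-I was below the midpoint by −0.50 ± 0.07 (log2, SE) for Gch1 (adjusted p = 0.00266), −0.85 ± 0.09 for Sall2 (adjusted p = 5.73e-04) and −0.96 ± 0.14 for Ppp1r3e (adjusted p = 0.00266), all of which were high in Rop7-III. It was above the midpoint by 0.86 ± 0.05 for Atg14 (adjusted p = 2.44e-05) and 1.06 ± 0.12 for Ccnb1ip1 (adjusted p = 9.86e-04), both of which were low in Rop7-III. The values of 3 others lay on the same side without passing: −0.49 ± 0.12 for Rpgrip1 (adjusted p = 0.0311), 0.46 ± 0.12 for Rnase4 (adjusted p = 0.0425) and 0.49 ± 0.25 for Samd4 (adjusted p = 0.248). For the graded pair Rop7-I was at 0.04 ± 0.13 from the midpoint for 4930431P03Rik (adjusted p = 0.896) and at −0.03 ± 0.16 for Ptger2 (adjusted p = 0.928). The result held under every alternative for Atg14 and Sall2. It was lost in 3 of 17 alternatives for Gch1, in 2 of 16 for Ccnb1ip1 and in 5 of 16 for Ppp1r3e, among them the fits without Rop7-I replicate 1 (adjusted p = 0.0181, 0.0101 and 0.0117).

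**Figure D2:**
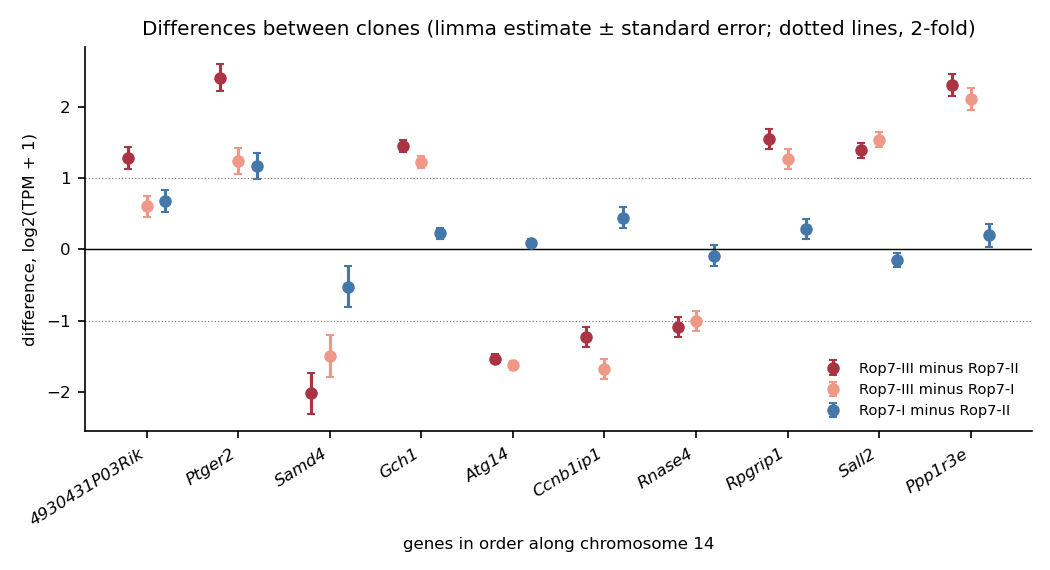
Differences in log2(TPM + 1) between the 3 pairs of clones (y axis, limma estimate with standard error, 3 samples per clone) for the 10 genes in order along chromosome 14 (x axis), with dotted lines at 2-fold. Both differences with Rop7-III lie beyond 2-fold on the same side for 9 genes, all but 4930431P03Rik, and the difference between Rop7-I and Rop7-II exceeds 2-fold for Ptger2 alone.

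A difference between clones was called where it was at least 2-fold and its adjusted p lay under 0.01, and a clone was taken as set apart where both differences with it were called in the same direction and the difference of the other pair was not. The differences with Rop7-III share its samples with the pair that chose the genes, so these calls are a description. Between Rop7-III and Rop7-II 206 genes (1.7% of those tested) were called, between Rop7-III and Rop7-I 128 (1.06%), and between Rop7-I and Rop7-II 115 (0.949%). Of the 10 genes, 8 were called between Rop7-III and Rop7-I, 5 higher in Rop7-III (0.611% of all tested genes were) and 3 lower (0.446%), and only Ptger2 between Rop7-I and Rop7-II, higher in Rop7-I by 1.17 ± 0.18. Rop7-III was set apart in 7 genes, high in Gch1, Rpgrip1, Sall2 and Ppp1r3e and low in Atg14, Ccnb1ip1 and Rnase4. Across the genome Rop7-III was set apart in 57 genes (0.47% of those tested), and these 7 were the only ones on chromosome 14. Rnase4 was the least secure, with a difference of −1.01 ± 0.14 from Rop7-I that fell short of the call in 8 of 16 alternatives.

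The question of whether the genes between and beside them share the pattern was addressed with all 76 tested genes that start at 45 to 55 Mb, of which 8 are among the 10 genes and 68 are not. Among all 76, 8 (10.5%) were called between Rop7-III and Rop7-II, which are the 8 chosen genes themselves, and 8 (10.5%) between Rop7-III and Rop7-I, while 0 were called between Rop7-I and Rop7-II by limma, where 19 had an unadjusted p under 0.05 (25.0%, against 32.1% of all tested genes). In the rest of chromosome 14, with 339 tested genes, 10 (2.95%), 2 (0.59%) and 3 (0.885%) were called in the same 3 pairs. This rest includes Ptger2 and 4930431P03Rik, which start just below 45 Mb and supply 2 of the 10, 1 of the 2 and 1 of the 3 calls.

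Of the 68 other genes of the window, only Bcl2l2 was called in any pair, between Rop7-III and Rop7-I. That none was called between Rop7-III and Rop7-II follows from the choice of the 10, which took every gene of the window called in that pair. Without the 2-fold limit, 13 of the 68 (19.1%) had an adjusted p under 0.01 between Rop7-III and Rop7-I, against 4.85% of all tested genes. Of the 13, 10 were higher and 3 lower in Rop7-III, where 312 and 276 of all tested genes were. Between Rop7-III and Rop7-II 13 of the 68 (19.1%) had an adjusted p under 0.01 as well, against 12.3%, in the contrast the choice used. Between Rop7-I and Rop7-II 2 did (2.94%), against 7.53%. The odd clone was Rop7-III for 37 of the 68 (54.4%), against 35% of all tested genes, and for 12 of the 13 genes past the threshold between Rop7-III and Rop7-I, against 59.4% of all genes past it. The exception was Pabpn1, which was lowest in Rop7-I. Rop7-I was past the threshold against the midpoint of the other clones in 8 of the 68 (11.8%), below it in 7, Pabpn1 among them, and above it in 1. Over all tested genes 4.13% were past it, 256 below and 244 above. Being neighbours, these genes are not independent, and no test of the window was made.

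**Figure D3:**
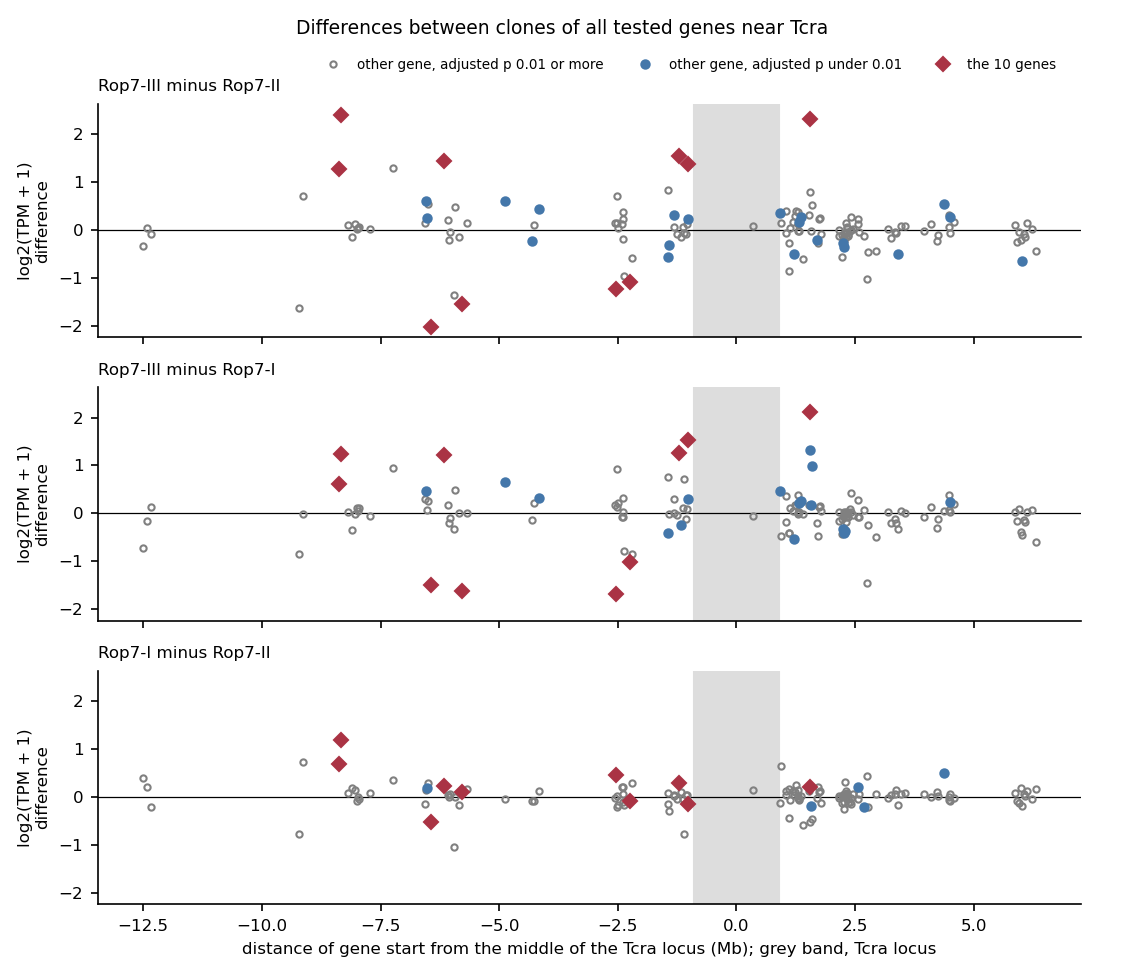
Differences in log2(TPM + 1) (y axis) of the 142 tested genes that start at 40 to 60 Mb of chromosome 14, against the distance of the gene start from the middle of the Tcra locus (x axis, Mb), for the 3 pairs of clones. The 10 genes (diamonds, not marked for p) lie far from 0 in the top panel. In the middle panel all but 4930431P03Rik (0.60) do. Both panels also hold other genes past an adjusted p of 0.01 (filled circles), and the lowest panel, which leaves out Rop7-III, has few filled circles.

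Along chromosome 14 in bins of 5 Mb, genes with an adjusted p under 0.01 between Rop7-III and Rop7-I made up 15 of 50 (30%) in the bin at 50 to 55 Mb, where Tcra lies, and 5 of 26 (19.2%) in the bin at 45 to 50 Mb. The next bin, 55 to 60 Mb, had 4 of 59 (6.78%), and the bin before, 40 to 45 Mb, held only 7 tested genes, 1 of them past the threshold. In no other bin with 20 or more tested genes was the share above 10.5% for this pair. These counts include the chosen genes. Without them, 10 of 45 (22.2%) passed at 50 to 55 Mb, 3 of 23 (13%) at 45 to 50 Mb and 0 of 5 at 40 to 45 Mb by limma. The genes set apart in Rop7-III were 2 in the bin at 45 to 50 Mb and 5 in that at 50 to 55 Mb. Between Rop7-III and Rop7-II, the contrast the choice used, the shares were 30.8% at 45 to 50 Mb and 26% at 50 to 55 Mb. Without the chosen genes they were 21.7% and 17.8%. Bins away from Tcra came close to or above these in that pair, with 23.8% at 65 to 70 Mb (21 genes) and 25% at 75 to 80 Mb (28 genes).

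**Figure D4:**
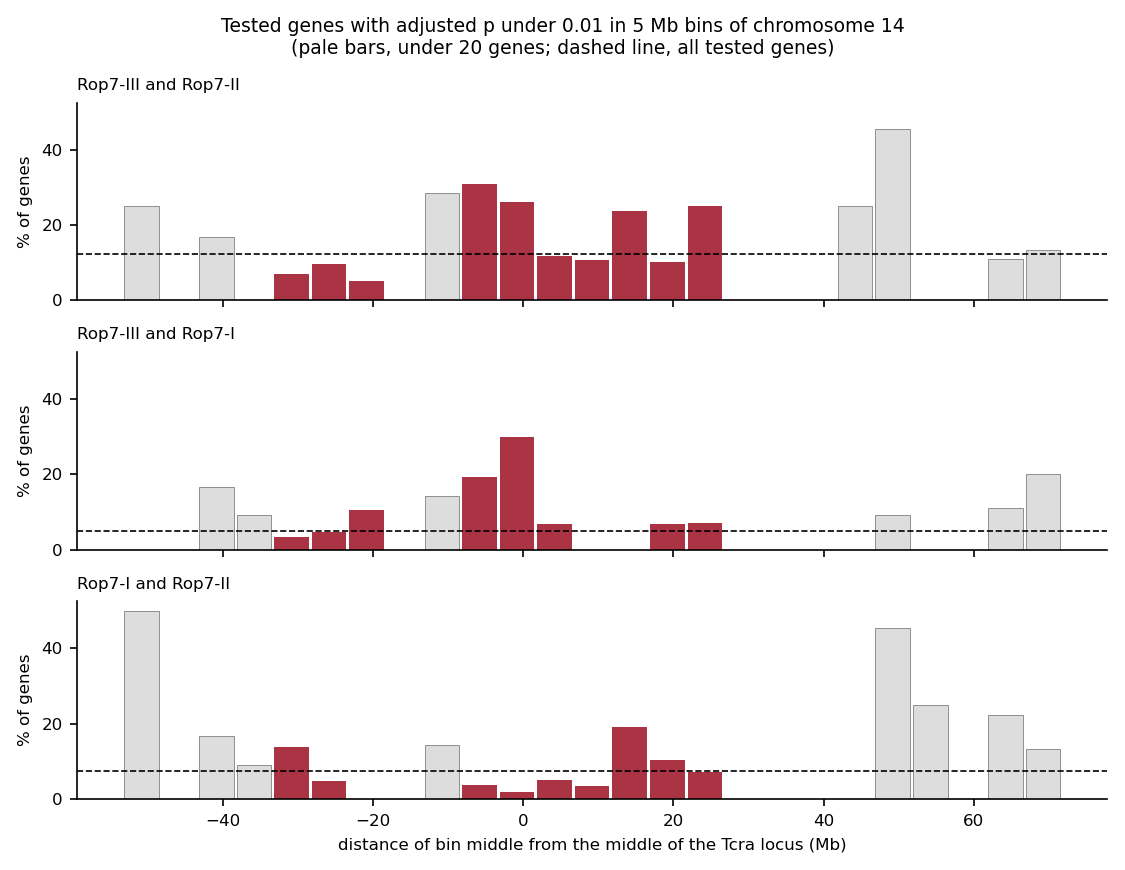
Percent of tested genes with an adjusted p under 0.01 (y axis) in 5 Mb bins of chromosome 14, by distance of the bin's middle from the middle of Tcra (x axis, Mb), for each pair of clones; pale bars hold under 20 genes and dashed lines give the share over all tested genes. In the pair Rop7-III and Rop7-I, the bar holding Tcra (30%) and the next lower-coordinate bar (19.2%) stand above the line at 4.85%. Both include chosen genes, without which they are 22.2% and 13%. The next bar on the higher-coordinate side stands lower, at 6.78%. In the pair Rop7-III and Rop7-II, bars of 20 or more genes away from Tcra reach 25%, against a line at 12.3%.

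Beside the individual genes the pattern was mixed. Taking the nearest tested gene on either side of each of the 10 genes, 12 of 20 sides (60%) had the same odd clone, against 37.3% of all neighbouring pairs in the genome, and 7 (35%) had the same odd clone in the same direction, against 22.4%. Only 16 of these neighbours were not chosen genes themselves. Samd4 and Gch1 neighbour each other and count from both ends, with the same odd clone in opposite directions. So do 4930431P03Rik and Ptger2, whose odd clones differed. The 9 genes of the window that were called in any pair of clones form 8 successive pairs along the chromosome, with all genes that were not called left out. Such pairs need not be adjacent. Ktn1, Tmem260 and Naa30, for example, lie between Atg14 and Ccnb1ip1. The window also leaves out the called genes 4930431P03Rik and Ptger2, so no pair with them is counted. All 8 pairs had Rop7-III as the odd clone of both genes, and 5 (62.5%) had it in the same direction. Of the 280 such pairs in the genome, 56.8% shared an odd clone, whichever it was, and 38.9% shared its direction too. Rop7-III being odd in these genes follows in part from how they were chosen.

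Around Ppp1r3e the nearest tested gene on either side was highest in Rop7-III, as Ppp1r3e was. Bcl2l2, which encodes the anti-apoptotic protein BCL-W and lies 5.83 kb away, was at 0.28, 0.41 and 0.69 TPM in Rop7-I, at 1.60, 1.06 and 0.68 in Rop7-II and at 2.74, 2.74 and 2.38 in Rop7-III. It exceeded its Rop7-I level in Rop7-III by 1.32 ± 0.19 (log2, adjusted p = 0.00266), and its Rop7-II level by 0.80 ± 0.19, which was not called (adjusted p = 0.0152). Homez, a homeobox gene 3.87 kb to the other side, had means of 4.36, 3.92 and 5.08 TPM in Rop7-I, Rop7-II and Rop7-III and passed in no pair. Slc22a17, a further gene of this cluster, had means of 3.04, 4.58 and 6.96 TPM in the same order. It was past the threshold between Rop7-III and Rop7-I (0.99 ± 0.14, adjusted p = 0.00240), just under 2-fold, but not between Rop7-III and Rop7-II (adjusted p = 0.0240). It was singled out after its values were seen. Bcl2l2 and Slc22a17 were lowest in Rop7-I, whereas Rop7-I and Rop7-II overlapped for Ppp1r3e. Pabpn1, which lies between Bcl2l2 and Slc22a17, had means of 285, 327 and 323 TPM, with Rop7-I as the odd clone.

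Beside Sall2, Mettl3, the catalytic subunit of the RNA N6-adenosine methyltransferase, lies 2.44 kb away and also rose in Rop7-III, by a small amount. Its samples were at 54.8 to 58.7 TPM in Rop7-I, 59.3 to 61.8 in Rop7-II and 69.5 to 71.2 in Rop7-III, with adjusted p = 0.00104 against Rop7-I and 0.00257 against Rop7-II. Mettl3 and Sall2 are the last tested genes before Tcra. Beyond its other end, Dad1, a subunit of the oligosaccharyltransferase of the endoplasmic reticulum, had 143 to 159 TPM in Rop7-I, 150 to 172 in Rop7-II and 198 to 220 in Rop7-III (adjusted p = 0.00175 and 0.00409). By contrast A430107P09Rik, which lies within the Tcra span, had means of 14.5, 13.2 and 13.9 TPM and passed in no pair.

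Other flanks did not follow. Atg14, with the tightest values of the 10 genes, lies between Fbxo34, 8.93 kb away, with means of 16.7, 18.9 and 16.9 TPM in Rop7-I, Rop7-II and Rop7-III, and Ktn1, with 49.8, 44.7 and 49.7, and in both Rop7-II was the odd clone. The same held for Txndc16 beside Ptger2, at 33.0, 31.5 and 33.7 TPM, and Hnrnpc, 0.202 kb from Rpgrip1, was at 173, 179 and 168. None of these 4 passed in any pair. Samd4 and Gch1, 48.1 kb apart, moved in opposite directions, and so did Rpgrip1 and Supt16. Beside Ccnb1ip1, Ttc5 had means of 108, 111 and 123 TPM and Rpph1 of 0.143, 0.327 and 1.42, both highest in Rop7-III where Ccnb1ip1 was lowest, and neither passed. Rnase4 had flanks that were lowest in Rop7-III as well, Pnp2 at 1.98, 2.36 and 0.770 TPM and Rnase6 at 2.68, 3.97 and 0.993, but neither passed, and Rnase6 reached 10.9 TPM in Rop7-II replicate 1 alone. Beside the remaining genes, Cgrrf1, next to Samd4, had Rop7-II as its odd clone, Wdhd1, next to Gch1, was highest in Rop7-III, and 1700047E10Rik, next to 4930431P03Rik, was lowest in Rop7-II, as 4930431P03Rik was. None of the 3 passed in any pair.

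The smallest difference between Rop7-III and Rop7-II among the chosen genes of the window was −1.09 for Rnase4, and the largest with an adjusted p under 0.01 outside it were 0.61 for Tmem260, 0.60 for Cnih1 and −0.57 for Mettl17. Between these lay genes that did not pass and were not chosen, among them Pnp2 (−0.95, adjusted p = 0.0129), Slc39a2 (0.83, adjusted p = 0.0106) and Bcl2l2 (0.80, adjusted p = 0.0152). Lgals3 (−1.36, adjusted p = 0.143) and Gm1821 (1.29, adjusted p = 0.0886) had wider differences than Rnase4 and did not pass either. The gene whose pattern over the 9 samples was most like that of each of the 10, by Pearson's r of log2(TPM + 1) over all tested genes, lay on chromosome 14 for 2 of them. It was Tmem260 for Sall2 (r = 0.990), a gene of the window with means of 11.7, 12.2 and 19.1 TPM in Rop7-I, Rop7-II and Rop7-III, and Arhgef3 for 4930431P03Rik (r = 0.995), which starts at 27114461, with means of 128, 79.3 and 177 TPM. For the other 8 it lay elsewhere: Polg for Ptger2, Bcl9 for Samd4, Arhgef6 for Gch1, Rgs3 for Atg14, Gimap8 for Ccnb1ip1, Aim2 for Rnase4, Nudt14 for Rpgrip1 and Pepd for Ppp1r3e, with r between 0.982 and 0.996. With 9 samples in 3 clones, a gene with similarly spaced clone means and little spread within clones reaches a high r wherever it lies.

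Other genes of the same pathways are read against the 12.3% of all tested genes that passed an adjusted p of 0.01 between Rop7-III and Rop7-II. In the autophagy kinase complex and its regulators, 11 genes beside Atg14 were tested, and none was called in any pair at 2-fold. Past an adjusted p of 0.01 between Rop7-III and Rop7-II, Uvrag, the subunit that takes the place of Atg14 in a second form of the complex, was lower in Rop7-III (means of 53.5, 52.4 and 41.6 TPM in Rop7-I, Rop7-II and Rop7-III; −0.32, adjusted p = 0.00766), and Rb1cc1 was higher (66.4, 55.7 and 63.0 TPM; 0.17, adjusted p = 0.00817). The odd clone was Rop7-III for Uvrag but Rop7-II for Rb1cc1. Becn1 and Pik3c3, the core of the complex, were at 172 to 174 and 58.0 to 59.5 mean TPM.

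In tetrahydrobiopterin synthesis, 1 of 5 genes beside Gch1 rose from Rop7-II to Rop7-III, Pts, the next enzyme of the pathway, at 86.8, 86.3 and 105 TPM (0.28, adjusted p = 0.00374), and 0 fell. Of 5 genes of prostaglandin E2 synthesis, transport and reception beside Ptger2, 0 passed in either direction, and the receptor gene Ptger4 was at 21.1, 22.1 and 24.6 TPM. Of 12 genes of glycogen metabolism beside Ppp1r3e, 2 rose from Rop7-II to Rop7-III, Gbe1, the branching enzyme (0.44, adjusted p = 0.00451), and Gyg, glycogenin (0.62, adjusted p = 0.00447), and 0 fell. The odd clone was Rop7-III for Gbe1 but Rop7-II for Gyg, which had means of 21.2, 15.6 and 24.5 TPM in Rop7-I, Rop7-II and Rop7-III. Ppp1r3f, a targeting subunit like Ppp1r3e, was lower in Rop7-III than in Rop7-I (−0.59, adjusted p = 0.00161).

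Of 13 genes of deadenylation and translational repression beside Samd4, 3 rose from Rop7-II to Rop7-III, Cnot6l (0.42, adjusted p = 1.43e-04), Tob1 (0.78, adjusted p = 2.74e-04) and Btg2 (0.29, adjusted p = 4.01e-04). All 3 were also past the threshold between Rop7-I and Rop7-II and had Rop7-II as the odd clone, unlike Samd4; Btg2 was named after its values were seen. Cnot8, a deadenylase subunit, was lowest in Rop7-I, at 86.1, 124 and 118 TPM. Between Rop7-III and Rop7-I the genes of all lists that passed were Pts and Cnot8, which were higher in Rop7-III, and Uvrag, Ppp1r3f and Chd4, which were lower. Of 8 genes of the spalt family and the NuRD complex beside Sall2, Chd4 (−0.14, adjusted p = 0.00812) and Mbd3 (−0.23, adjusted p = 0.00732) fell from Rop7-II to Rop7-III, and the odd clone of Mbd3 was Rop7-II, which was high. Of the 3 ribonuclease genes beside Rnase4, the 5 transition-zone genes beside Rpgrip1 and the 4 crossover genes beside Ccnb1ip1, 0 passed in any pair. None of the genes in these 9 lists other than the 10 was called at 2-fold in any pair. The median difference between Rop7-III and Rop7-II over all tested genes was −0.02. Over the 3 ribonuclease genes it was −0.57, the value of Rnase6, which was at 10.95, 0.13 and 0.83 TPM in Rop7-II, the highest in replicate 1, the sample that stood apart, and over the other 8 lists it lay between −0.13 and 0.10.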

How the data were processed

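RNA-seq values of 9 samples, 3 per clone by their labels, were used. The authors aligned non-strand-specific single-end reads to the RefSeq genes of mm10 and counted them per gene with RSEM 1.2.11, and deposited TPM, in which length-corrected abundances add up to the same total in each sample. No read counts or depths can be had from TPM, so counting error was not estimated. The study tested counts with DESeq2 1.8.1, which TPM do not allow.

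Genes with a maximum TPM over 1 (12115 of 24060) were compared on the log2(TPM + 1) scale, which understates the changes of low genes, with limma 3.58.1 in R 4.3.3. All 9 samples shared 1 estimate of the spread with a trend on mean expression, and p was adjusted over all tested genes by the Benjamini-Hochberg method. Every adjusted p in the text is from limma. The fit was tested on simulated data. Positions are those of RefSeq GRCm38.p6, or of GENCODE M21 where RefSeq had none (12066 genes placed). The named genes were the 10 genes, other called genes of the window, the nearest tested neighbours and overlapping genes, the flanks of Tcra, up to 3 genes per pathway list past an adjusted p of 0.01, and for each gene the gene most like it. The genes, the lists and the window were chosen with earlier results of these data known. Alternatives were the pseudocount, the filter, the scaling, the trend, the samples fitted, the thresholds, the window, a replicate block and leaving out each sample.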

Additional observations from a re-analysis of the deposited data

How the results depend on the processing

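Over 164 recomputed values in each contrast, the differences of the 10 genes kept direction and call in 164 between Rop7-III and Rop7-II, in 147 between Rop7-III and Rop7-I (13 lost and 4 gained the call) and in 158 between Rop7-I and Rop7-II (3 lost, 2 gained, 1 reversed), and Rop7-I against the midpoint in 144 (10 lost, 2 gained, 8 reversed). The reversals were in values near 0. For Ptger2 the midpoint difference became 0.40 with a pseudocount of 0.1, 0.10 with 0.5, and −0.18 to 0.084 without single samples. For 4930431P03Rik it became −0.042 with quantile normalization and −0.012 to 0.076 without single samples. For Rnase4 the difference between Rop7-I and Rop7-II ran from −0.14 to 0.0023, the last without Rop7-II replicate 1. Samd4 was called between Rop7-III and Rop7-I with a pseudocount of 0.1 (−3.95) or 0.5 (−2.17), without Rop7-I replicate 2 (−1.83) and without Rop7-II replicate 1 (−1.50). Ptger2 lost that call with a pseudocount of 0.1 (adjusted p = 0.0205) and in 4 fits that left out a sample (Rop7-I replicate 1 or 3, with 0.0166 and 0.0127, and Rop7-III replicate 1 or 2, with 0.0176 and 0.0174). Rnase4 fell under 2-fold with a common median (−0.99) and with quantile normalization (−0.92).

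With at least 1 TPM required in every sample, which removes genes that are near 0 in a clone, 79 genes were called between Rop7-III and Rop7-I, and 4 genes of the window in each pair with Rop7-III. With no fold minimum, 1488, 588 and 912 genes passed between Rop7-III and Rop7-II, Rop7-III and Rop7-I, and Rop7-I and Rop7-II, with 21, 20 and 2 in the window. A window of 40 to 60 Mb, or one widened at its lower end to take in Ptger2 (chosen after seeing the data), gave 1 gene between Rop7-I and Rop7-II. Past the midpoint threshold there were 1460 genes at an adjusted p under 0.05 and 291 with no trend. Without single samples this count ran from 167 (without Rop7-I replicate 1) to 679 (without Rop7-II replicate 1), and was 198 and 262 when Rop7-I replicate 2 or 3 was left out and 293 and 266 when Rop7-III replicate 1 or 2 was. The genes called between Rop7-III and Rop7-I ran from 82 (without Rop7-III replicate 2) to 160 (without Rop7-II replicate 1). The causes were not tested.

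The replicate numbers shared by the clones did not pair the samples, since deviations of same-numbered samples correlated between −0.388 and 0.106. With the replicate number as a block, 306 genes passed the midpoint threshold, and 183, 102 and 104 were called in the 3 pairs. Rnase4 lost its call between Rop7-III and Rop7-I (adjusted p = 0.0106) and Gch1 its midpoint result (adjusted p = 0.0122).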
